A study of Mus musculus with 4 samples.

Results

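The genes described here are 10 that take up glucose and break it down to lactate: the glucose transporters *Slc2a1* and *Slc2a3*, the hexokinase *Hk2*, the phosphofructokinase *Pfkp*, the aldolase *Aldoa*, *Gapdh*, the phosphoglycerate kinase *Pgk1*, the pyruvate kinase *Pkm*, and the lactate dehydrogenases *Ldha* and *Ldhb*. They were chosen by name, and all 10 have a row in every count table, among 19616 genes with a row in any of the 3 libraries and 15140 with a row in each. The libraries were made from gastrulating mouse embryos at MS-LS (mid to late streak, E6+21h), OB-EB (no bud to early bud, E7+3h) and EHF (early head fold, E7+14h). All embryos carried TnEGP-CreERT2/+; R26Rtdtomato/R26Rtdtomato, in which a tamoxifen-dependent Cre is made where T is expressed, mainly in the primitive streak, and switches on tdTomato. Tamoxifen was given by oral gavage at 0.08 mg/bw, at E6+5h for MS-LS, E6+21h for OB-EB and E7+7h for EHF, so every group carried the same alleles and had received the drug, and no untreated embryo was analysed here.

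Each stage was 1 library of whole embryos, several embryos together, and its cells are not assigned to embryos. The question that can be asked is how the levels of these genes differed among the stages and among the cell types within a stage. With 1 library a stage there was no replicate and no test was made. A level is the number of unique molecular identifiers (UMIs, 1 for each captured molecule) in the same cells scaled to a total of 1000000 (CPM), and brackets hold exact Poisson 95% intervals that cover counting error only. A log2 ratio carries the exact 95% interval of the ratio of UMI sums. A gene is called past 2-fold when its log2 ratio was at least 1 in size, its interval excluded 0 and both groups together held at least 100 UMIs. Because the 3′ assay counts 1 tag a transcript, levels were not divided by transcript length, and a comparison of levels between genes is of captured tags.

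The libraries held 3635, 3994 and 3494 cells and 17966956, 12181436 and 20376539 UMIs, in the order MS-LS, OB-EB and EHF. Median UMIs per cell were 4251, 2620.5 and 5584. Pairs of libraries shared 12 to 18 cell barcodes. The EHF library was deposited as 2 count tables that did not differ at any of 65128160 places, and it was counted once. Cells were clustered without the 10 genes, and clusters were named by marker genes. The 30 named classes with at least 50 cells (8, 6 and 16 by stage) are called "like" a cell type. Cells that stayed unnamed were 19.4% of MS-LS, 57.8% of OB-EB and 24.2% of EHF, so the named OB-EB classes cover less of their library.

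Glycolysis converts glucose into pyruvate in the cytosol and yields ATP without oxygen, and lactate dehydrogenase regenerates the NAD+ it needs by reducing pyruvate to lactate. Embryos at implantation and gastrulation are known for a high use of glucose with export of lactate. *Slc2a1* is the widespread basal transporter and *Slc2a3* a transporter of high affinity. The visceral endoderm is the absorptive epithelium that covers the embryo and takes up maternal nutrients before the placenta works.

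The 10 genes together took 6582 CPM in MS-LS (6545 to 6620), 4987 in OB-EB (4947 to 5027) and 9016 in EHF (8975 to 9058). The OB-EB library was therefore the lowest and the EHF library the highest. The summed level differed by a log2 ratio of -0.40 for OB-EB over MS-LS, 0.85 for EHF over OB-EB and 0.45 for EHF over MS-LS. The median log2 ratio over all genes tested was -0.09, 0.37 and 0.26 in these comparisons, so part of each value is a shift that the whole library shows.

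**Figure D1:**
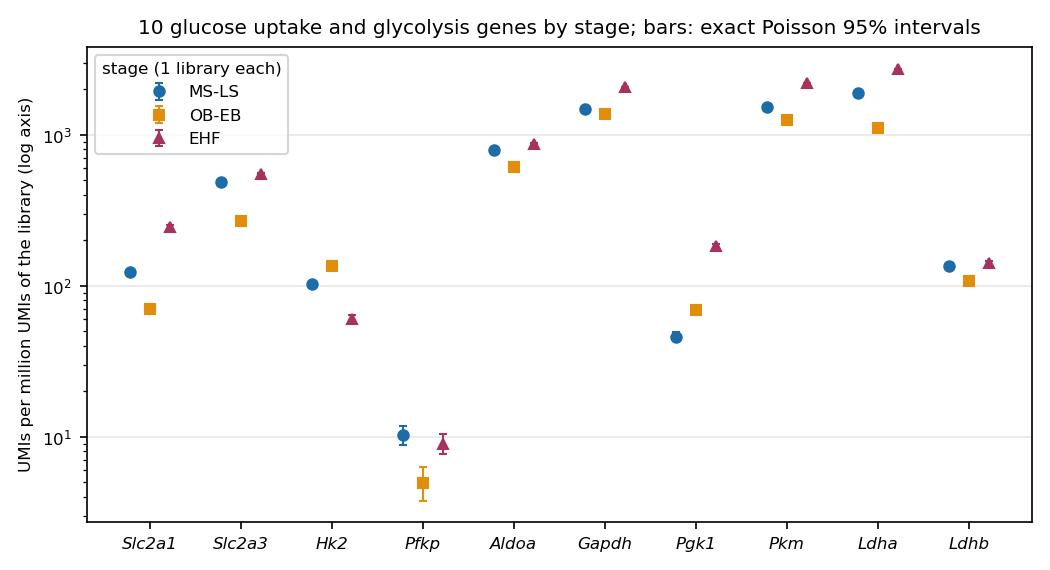
CPM in the whole library (log axis) for each of the 10 genes at the 3 stages, 1 library each, with exact Poisson 95% intervals. *Slc2a1*, *Slc2a3*, *Pkm* and *Ldha* were lowest in OB-EB and highest in EHF, *Hk2* ran from 135 CPM in OB-EB down to 60.2 in EHF, and *Pgk1* from 45.9 in MS-LS up to 182 in EHF.

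The transcripts of both transporters were lowest in OB-EB. *Slc2a1* stood at 122 CPM in MS-LS, 70.5 in OB-EB and 244 in EHF, and its intervals did not overlap between any pair of libraries. *Slc2a3* stood at 483, 269 and 547 CPM, also without overlap. The EHF library had 3.47-fold the *Slc2a1* level of OB-EB (log2 1.79, 1.69 to 1.90) and 2.03-fold its *Slc2a3* level (log2 1.02, 0.97 to 1.08).

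*Hk2*, which phosphorylates glucose and so keeps it in the cell, had the opposite order, with 102 CPM in MS-LS, 135 in OB-EB and 60.2 in EHF. It was the only one of the 10 past 2-fold in the lower direction in EHF over OB-EB (log2 -1.16, -1.27 to -1.06). *Hk1*, the other widespread hexokinase, stood at 4.62, 2.22 and 10.3 CPM, so *Hk2* held 95.7%, 98.4% and 85.4% of the UMIs of this pair. *Pfkp*, the platelet type of the enzyme of the committed step, was rare, with 10.2, 4.93 and 8.98 CPM from 184, 60 and 183 UMIs. It held 6.92%, 3.88% and 6.44% of the UMIs of the 3 phosphofructokinase genes, while the liver type *Pfkl* stood at 132, 117 and 121 CPM.

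*Aldoa*, *Gapdh* and *Pkm* were, with *Ldha*, the most abundant of the 10 in each library. *Aldoa*, which splits fructose bisphosphate, stood at 790, 608 and 870 CPM. *Gapdh*, which makes NADH, stood at 1487, 1376 and 2060 CPM, and *Pkm*, which makes pyruvate and ATP, at 1533, 1248 and 2190 CPM. All 3 were lowest in OB-EB and highest in EHF. *Pgk1*, which makes the first ATP of the pathway, differed from them, with 45.9 CPM in MS-LS, 69.1 in OB-EB and 182 in EHF. Its EHF level was 3.97-fold that of MS-LS (log2 1.99, 1.88 to 2.10). The reference also held a PGK poly(A) signal of the reporter vector with 62, 31 and 19 UMIs and the copy *Pgk1-rs7* with 25, 28 and 84 UMIs, and sharing of reads between these and *Pgk1* was not tested.

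*Ldha*, the main producer of lactate, was the most abundant of the 10 in MS-LS and EHF, with 1875 and 2713 CPM, and had 1099 CPM in OB-EB. *Ldhb*, whose product favours the use of lactate, stood at 134, 107 and 141 CPM. Its interval for EHF over MS-LS included 0 (log2 0.07, -0.01 to 0.15).

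Past 2-fold, OB-EB over MS-LS had 0 of the 10 genes higher and 1 lower, *Pfkp* (log2 -1.06, -1.50 to -0.63), where 4.17% of all 9706 genes tested were called higher and 3.28% lower. EHF over OB-EB had 4 higher (*Slc2a1*, *Slc2a3*, *Pgk1* and *Ldha*) and 1 lower (*Hk2*), where 14.9% of 10453 genes were higher and 5.57% lower. EHF over MS-LS had 2 higher (*Slc2a1*, with a log2 interval of 0.93 to 1.07, and *Pgk1*) and 0 lower, where 10.9% of 10778 genes were higher and 4.52% lower. Ratios were also centred on the median of all genes and counted by a centred log2 ratio of at least 1 in size, without the interval rule. OB-EB over MS-LS then had 0 higher and 0 lower, with *Pfkp* at -0.97, against 5.07% and 2.46% of all genes. EHF over OB-EB had 2 higher (*Slc2a1* and *Pgk1*) and 1 lower (*Hk2*), against 6.62% and 10.2%. EHF over MS-LS had 1 higher (*Pgk1*) and 1 lower (*Hk2*), against 6.96% and 6.62%. *Pgk1* was higher and *Hk2* lower in both centred comparisons with EHF, which share that library.

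Cell composition moved with the values of *Slc2a3* and *Pfkp*. The visceral endoderm-like class was 18.7% of the cells of MS-LS, 8.21% of OB-EB and 9.53% of EHF, and it held 72.7%, 57.2% and 54.9% of all *Slc2a3* UMIs. Without it, *Slc2a3* stood at 163 CPM in MS-LS (156 to 169), 128 in OB-EB (121 to 135) and 277 in EHF (270 to 285). Without the extra-embryonic and blood classes the log2 ratio of *Slc2a3* was -0.09 for OB-EB over MS-LS in place of -0.85, and 1.33 for EHF over MS-LS in place of 0.18. The *Pfkp* ratio for OB-EB over MS-LS was -0.12 in place of -1.06. Within the extra-embryonic ectoderm-like class *Pfkp* was also lower, with 33.3 CPM in MS-LS and 17.2 in OB-EB (log2 -0.96, -1.82 to -0.19). Fewer cells of a type and fewer molecules a cell cannot be told apart from the whole-library values, and the classes below separate them.

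The start regions of the genes are shown because *Ldha*, *Pgk1* and *Slc2a1* stood higher in EHF than in OB-EB while *Hk2* stood lower, and because *Ldha* and *Ldhb* differed in their distribution among cell types. RefSeq's table for GRCm38.p6 gave windows of 300 bases, from 250 before to 50 after a start, for 9 of the 10 genes, 13 windows in all, and none for *Slc2a3*. Capitals mark ACGTG or its reverse complement CACGT, the core of the hypoxia response element, which also lies within the E-box CACGTG. *Slc2a1* is at chr4:119108495-119108794 (+), *Hk2* at chr6:82774405-82774704 (-), *Pgk1* at chrX:106186850-106187149 (+), *Ldha* at chr7:46845554-46845853 (+) and *Ldhb* at chr6:142507908-142508207 (-), each read 5′ to 3′ on the strand of the gene. In GRCm38, with GENCODE vM21, the genes lie as follows: *Slc2a1* at chr4:119108711-119137983 (+), *Slc2a3* at chr6:122727809-122801640 (-), *Hk2* at chr6:82725025-82774454 (-), *Pfkp* at chr13:6579768-6648777 (-), *Aldoa* at chr7:126795234-126800751 (-), *Gapdh* at chr6:125161715-125166467 (-), *Pgk1* at chrX:106187100-106203699 (+), *Pkm* at chr9:59656368-59679375 (+), *Ldha* at chr7:46841475-46855627 (+) and *Ldhb* at chr6:142490249-142507957 (-). UMIs were summed over each whole gene, so the isoforms of *Pkm* were not told apart.
Slc2a1: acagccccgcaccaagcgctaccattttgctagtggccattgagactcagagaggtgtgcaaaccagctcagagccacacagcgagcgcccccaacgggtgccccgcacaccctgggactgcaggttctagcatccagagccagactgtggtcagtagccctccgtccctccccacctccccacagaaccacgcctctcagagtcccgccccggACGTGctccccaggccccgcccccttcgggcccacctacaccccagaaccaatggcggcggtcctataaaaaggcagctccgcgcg
Hk2: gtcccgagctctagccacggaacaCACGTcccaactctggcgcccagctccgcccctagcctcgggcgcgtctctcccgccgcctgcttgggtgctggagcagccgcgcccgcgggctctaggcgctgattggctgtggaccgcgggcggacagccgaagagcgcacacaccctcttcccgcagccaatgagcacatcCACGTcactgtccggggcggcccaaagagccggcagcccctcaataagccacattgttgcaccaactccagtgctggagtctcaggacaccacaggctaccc
Pgk1: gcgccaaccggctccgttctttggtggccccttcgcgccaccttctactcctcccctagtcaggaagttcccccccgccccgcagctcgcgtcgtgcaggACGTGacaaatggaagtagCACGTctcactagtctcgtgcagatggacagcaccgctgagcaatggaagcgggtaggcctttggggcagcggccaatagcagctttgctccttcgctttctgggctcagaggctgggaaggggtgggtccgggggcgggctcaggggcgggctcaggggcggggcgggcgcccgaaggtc
Ldha: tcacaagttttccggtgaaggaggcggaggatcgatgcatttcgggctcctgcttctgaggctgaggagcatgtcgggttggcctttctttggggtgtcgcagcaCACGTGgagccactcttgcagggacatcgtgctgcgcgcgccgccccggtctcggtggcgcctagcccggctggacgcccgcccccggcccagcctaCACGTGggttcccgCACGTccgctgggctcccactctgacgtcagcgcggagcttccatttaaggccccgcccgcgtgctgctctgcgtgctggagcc
Ldhb: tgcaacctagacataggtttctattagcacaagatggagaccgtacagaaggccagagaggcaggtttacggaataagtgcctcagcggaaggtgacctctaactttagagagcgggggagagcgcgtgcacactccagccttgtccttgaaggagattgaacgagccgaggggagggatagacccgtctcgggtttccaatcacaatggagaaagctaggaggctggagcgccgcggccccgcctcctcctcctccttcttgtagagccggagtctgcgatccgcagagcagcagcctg
The core was found in 8 windows of 7 of the genes, and in 19.6% of all 32851 windows of this length. *Aldoa* has overlapping windows that hold the same match, 126 and 202 bases before their starts, and each was counted. The median GC content was 65% in the 13 windows and 52.7% over all windows. In the *Ldha* window shown, 1 of 2 for this gene, it occurred 5 times counting both strands, in 3 runs. The E-box was matched 2 times in it and in 7.15% of all windows. *Slc2a1* had 1 match, 36 bases before the start, and *Hk2* had matches 226 and 52 bases before it. *Pgk1* had matches 150 and 131 bases before the start, and the *Ldhb* window had none. The motif was thus in the windows of *Ldha*, *Pgk1* and *Slc2a1*, higher in EHF, and in that of *Hk2*, which was lower.

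Among cell types *Slc2a3* had the most calls, and *Gapdh*, *Ldha*, *Hk2* and *Pgk1* the fewest. Over the 30 classes, each set against the other cells of its library, 11 of 300 values were past 2-fold higher and 52 lower, which is 3.74% and 17.7% of the 294 with enough UMIs, where 4.55% and 9.01% of all gene and class values were. *Slc2a3* gave 4 of the higher and 19 of the lower calls, *Slc2a1* 3 and 7, *Pfkp* 4 and 6, and *Ldhb* 0 and 10. *Pgk1* was past 2-fold in 0 classes, and *Gapdh*, *Ldha* and *Hk2* in 1 each. In EHF the highest class exceeded the lowest 62.0-fold for *Slc2a3*, 22.7-fold for *Slc2a1*, 21.2-fold for *Ldhb* and 1.99-fold for *Pgk1*. *Gapdh* and *Pkm* had the most alike patterns over the 30 classes (Pearson's r of log2 levels 0.92), followed by *Gapdh* and *Ldha* (0.90), while *Hk2* and *Pgk1* had the lowest r (-0.50). These are descriptions over classes that share libraries and depth.

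**Figure D2:**
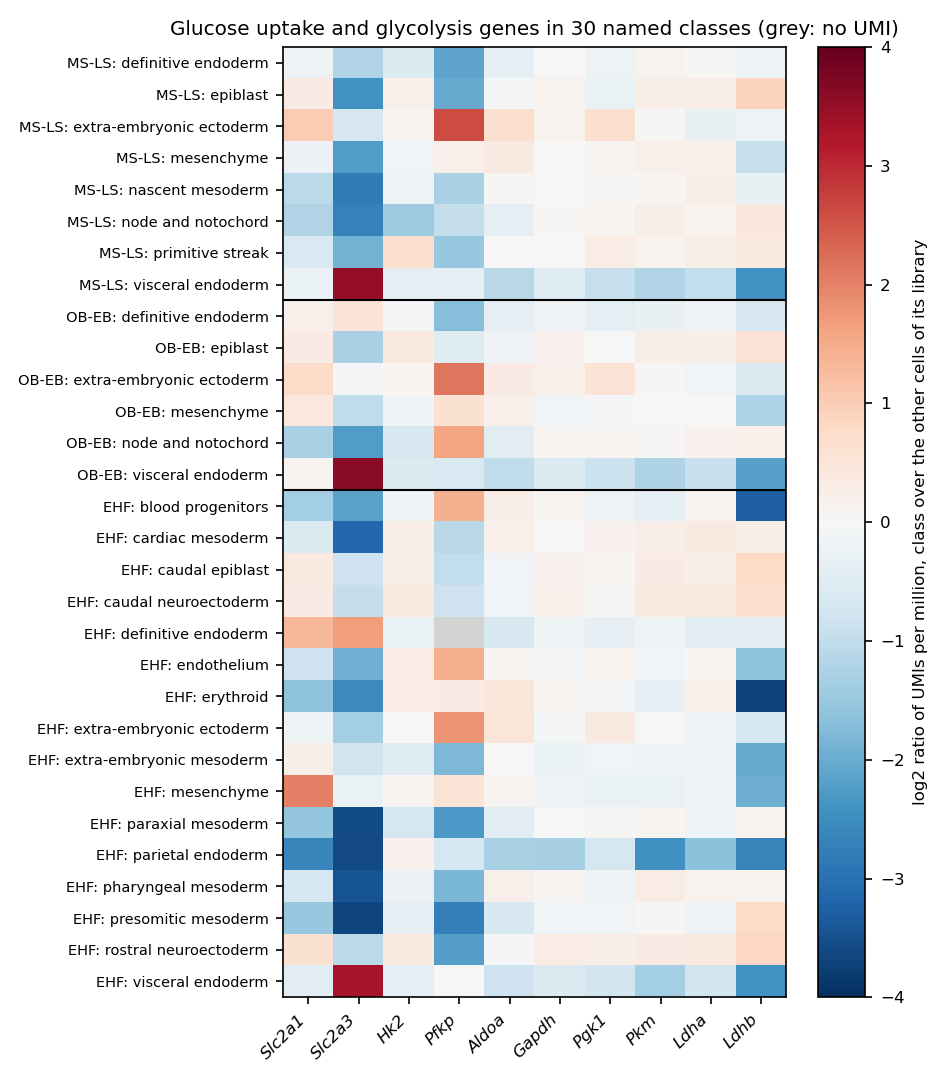
Log2 ratio of the CPM of a class over those of the other cells of its library, for the 10 genes (columns) in 30 named classes (rows, grouped by stage), from blue (lower) to red (higher), with grey for 0 UMIs. *Slc2a3* is highest in the visceral endoderm-like class of each library, and most values of *Gapdh*, *Pgk1* and *Ldha* are near 0. *Ldhb* is lowest in the visceral endoderm-like class of MS-LS and OB-EB and in the erythroid-like class of EHF. *Pfkp* colours rest on few UMIs.

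*Slc2a3* marked the visceral endoderm-like class at every stage. It stood at 1848 CPM in MS-LS (1803 to 1895), 1550 in OB-EB (1481 to 1622) and 2732 in EHF (2664 to 2802), against 163, 128 and 277 in the other cells, which gives log2 ratios of 3.51, 3.60 and 3.30. It had the highest *Slc2a3* level of the named classes in each library, and the intervals did not overlap those of the next class. Of the pair of transporters *Slc2a3* gave 94.6%, 95.4% and 93.7% of the UMIs there, and *Slc2a1* stood at 105, 75.3 and 183 CPM. All 8 markers used for visceral endoderm were detected in each cluster of this class, except a cluster of 29 EHF cells with 7. Of all genes tested, 16.8%, 13.3% and 12.4% were past 2-fold higher in this class and 11.3%, 14.1% and 18.4% lower.

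The level also differed within the visceral endoderm-like class. In MS-LS its 3 clusters stood at 2318 CPM (126 cells, led by *Cubn*), 1812 (283 cells, led by *Lgals2*) and 1436 (271 cells, led by *Spink1*), and their intervals did not overlap. *Slc2a2*, the transporter of low affinity known from liver and gut, stood at 257, 232 and 29.9 CPM in the same clusters. In EHF the 2 larger clusters stood at 2994 and 2607 CPM of *Slc2a3*, and a cluster of 29 cells at 1038 CPM (765 to 1376).

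Of the enzymes, *Pkm* and *Ldhb* were past 2-fold lower in the same class in each library. *Pkm* stood at 745, 558 and 908 CPM (log2 -1.21, -1.25 and -1.37). *Ldhb* stood at 29.6, 25.7 and 28.6 CPM (log2 -2.42, -2.18 and -2.43). *Aldoa* was past 2-fold lower in MS-LS (410 CPM, log2 -1.10) and OB-EB (315 CPM, log2 -1.03), and had 511 CPM in EHF (-0.84). *Gapdh* (log2 -0.57 to -0.53), *Ldha* (1038, 625 and 1706 CPM) and *Pgk1* (-0.92 to -0.76) were past 2-fold in 0 of the 3 libraries. *Ldha* came close to it in MS-LS (log2 -0.996, -1.05 to -0.95) and stood at -0.88 in OB-EB. Of 21 other glycolytic enzymes, of which 7 to 11 were tested, 2 were past 2-fold lower in MS-LS, 3 in OB-EB and 5 in EHF. *Eno1*, the main enolase, was lower in each, at 450, 617 and 624 CPM. Of 6 carriers of lactate and pyruvate, 5 were tested. *Slc16a1*, at 1352, 1125 and 847 CPM, and *Mpc2* were higher in each library, and *Slc16a3*, the carrier known for lactate export, was lower in each, at 18.7, 10.8 and 13.4 CPM.

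RNA freed from visceral endoderm cells was measured in the other classes by that tissue's secreted transcripts. They stood at 0.594% to 1.29% of their visceral endoderm level in MS-LS, 0.700% to 1.79% in OB-EB and 0.454% to 1.17% in EHF. The same share of the *Slc2a3* level comes to between 10.8 and 32.0 CPM. The lowest named classes had 74.9, 58.0 and 44.1 CPM of *Slc2a3*. These shares are 1 value a class, and single transcripts spread more widely. They ranged from 0% to 3.90% in the MS-LS node and notochord-like class, which had 74.9 CPM of *Slc2a3*. In EHF they ranged from 0.610% to 1.84% in parietal endoderm-like cells (44.7 CPM) and from 0.637% to 1.51% in pharyngeal mesoderm-like cells (51.6 CPM). The part of free RNA in these low levels was not tested. In the EHF presomitic mesoderm-like class 19.9% of cells had a *Slc2a3* UMI, and 18.4% had a UMI of *Apoa1*, an apolipoprotein of visceral endoderm, at a median of 4746 UMIs a cell. *Apoa1* stood at 7090 CPM in the visceral endoderm-like class, above *Slc2a3*, so its share of cells is not the background of *Slc2a3*. By its own share of 0.475% (0.454% to 0.677% by single transcripts), free RNA would bring 13.0 CPM of *Slc2a3* to this class, which had 44.1. In the visceral endoderm-like class, with a median of 6432 UMIs, these shares were 97.6% and 99.1%.

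Because the visceral endoderm-like cells raise the level of any group they are in, *Slc2a3* was also set against the other cells without them, a comparison added after the values were seen. Of the 30 classes 7 were then past 2-fold higher and 10 lower, in place of 4 and 19. The share of all genes called in this comparison was not computed, so these counts have no background beside them. The extra-embryonic ectoderm-like class, the precursor tissue of the placenta, was higher in MS-LS (log2 1.43) and OB-EB (1.14) but not in EHF (-0.28), with 323, 256 and 237 CPM. The definitive endoderm-like class, the gut precursor, was higher in OB-EB (1.75) and EHF (2.78), with 0.44 in MS-LS. In EHF 4 mesoderm classes were past 2-fold lower: presomitic (44.1 CPM, log2 -2.70), paraxial (46.6, -2.61), pharyngeal (51.6, -2.48) and cardiac mesoderm-like (63.4, -2.17). The extra-embryonic mesoderm-like class was not, at 319 CPM (log2 0.21). The neuroectoderm-like classes and the caudal epiblast-like class lay between, at 271 to 320 CPM, with log2 ratios of -0.03 to 0.22.

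**Figure D3:**
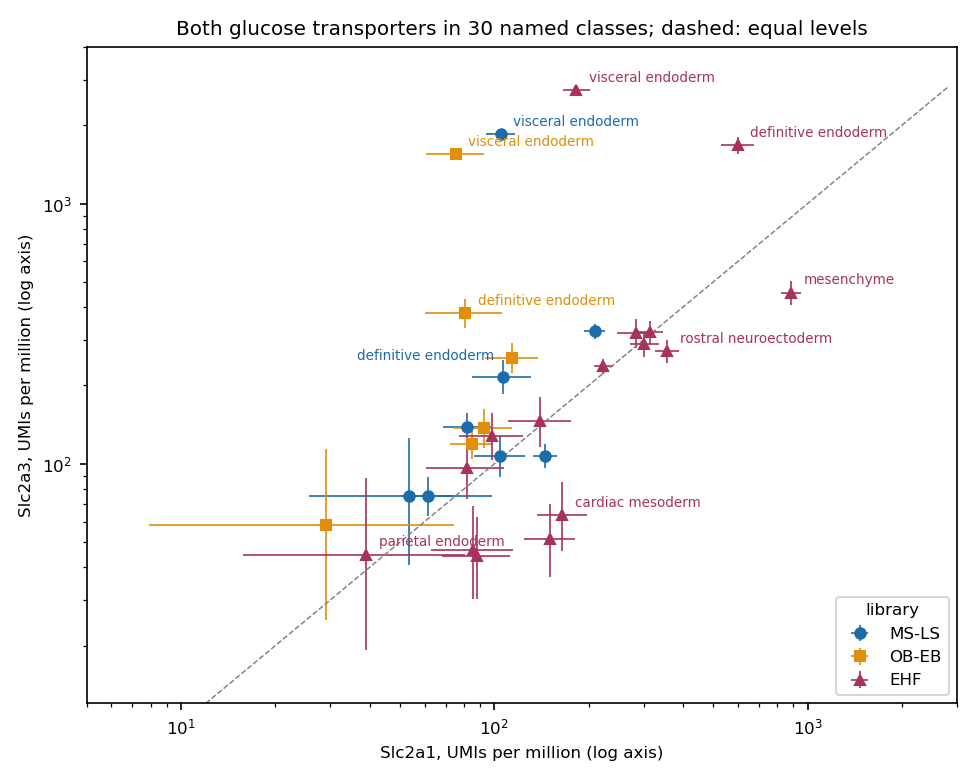
*Slc2a1* (horizontal, log axis) against *Slc2a3* (vertical, log axis) in CPM for the 30 named classes, with exact Poisson 95% intervals and a dashed line of equal levels, coloured by library. The visceral endoderm-like classes lie far above the line at 1550 to 2732 CPM of *Slc2a3*, the EHF definitive endoderm-like class lies at 1674 CPM, and the EHF mesenchyme-like, cardiac, pharyngeal, paraxial and presomitic mesoderm-like classes lie below the line.

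*Slc2a1* had a different order. In MS-LS and OB-EB it was highest in the extra-embryonic ectoderm-like class, at 209 CPM (193 to 226) and 114 CPM (93.2 to 138), and in OB-EB the interval overlapped those of the next classes. In EHF it was highest in the mesenchyme-like class (886 CPM, 822 to 955, 103 cells, led by *Pmp22*, *Stard8* and *Acta2*), next in the definitive endoderm-like class (599 CPM, 529 to 676), and then in the rostral neuroectoderm-like class (357 CPM). *Slc2a1* was past 2-fold higher in the first 2 of these (log2 2.02 and 1.34), where 6.06% and 5.24% of all genes were. It was past 2-fold lower in 5 EHF classes, the blood progenitor-like (98.1 CPM), presomitic (88.1), paraxial (85.8), erythroid (81.6) and parietal endoderm-like (39.1), where 13.8%, 7.67%, 5.66%, 15.1% and 5.59% of all genes were. *Slc2a3* made up 25.5% of the transporter UMIs in the pharyngeal and 27.8% in the cardiac mesoderm-like class, and 33.9% in mesenchyme-like cells.

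The parietal endoderm-like class of EHF, which lines the yolk cavity and lays down basement membrane, had the lowest summed level, 2748 CPM (2511 to 3002), against 7665 CPM or more in every other named EHF class of at least 50 cells. In it 7 of the 10 genes were past 2-fold lower, where 5.59% of all genes were: *Slc2a1*, *Slc2a3*, *Aldoa* (358 CPM), *Gapdh* (827), *Pkm* (402), *Ldha* (871) and *Ldhb* (22.3). *Hk2*, at 67.0 CPM, and *Pgk1*, at 112 CPM, were not. Of 11 other glycolytic enzymes tested *Tpi1*, *Pgam1* and *Eno1* were lower, and of 8 stress response genes tested 6 were higher, among them *Fos* and *Jun*, where 8.59% of all genes were higher. The class had 65 cells and a median of 2740 UMIs a cell, and the part of stress and depth in its levels was not tested. The highest sums among the named EHF classes were those of the rostral neuroectoderm-like (10658 CPM), caudal neuroectoderm-like (10430) and caudal epiblast-like (10165) classes, in which *Gapdh* (2294 to 2499 CPM) and *Pkm* (2710 to 2769 CPM) were also highest among the named classes.

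Among the named classes of at least 50 cells, the share of *Ldhb* among lactate dehydrogenase UMIs was highest in the epiblast-like class of OB-EB and lowest in the blood classes of EHF. The share of *Ldhb* among the UMIs of both lactate dehydrogenases was 6.67% in MS-LS, 8.88% in OB-EB and 4.93% in EHF. It was 8.89% (8.28% to 9.53%, exact binomial interval) and 10.5% (9.41% to 11.8%) in the epiblast-like classes of MS-LS and OB-EB, and 8.98% in the presomitic mesoderm-like class of EHF. In the erythroid-like class it was 0.357% (0.144% to 0.734%) and in the blood progenitor-like class 0.498% (0.249% to 0.889%). *Ldhb* itself stood at 11.2 CPM in the erythroid-like cells, from 7 UMIs, and 14.8 CPM in the blood progenitor-like cells, from 11, while *Ldha* stood at 3127 and 2955 CPM there. Some unnamed clusters had larger shares, up to 15.8% in OB-EB and 13.8% in EHF. The visceral endoderm-like classes had 2.77%, 3.94% and 1.65%, and the EHF mesenchyme-like class 1.50%.

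**Figure D4:**
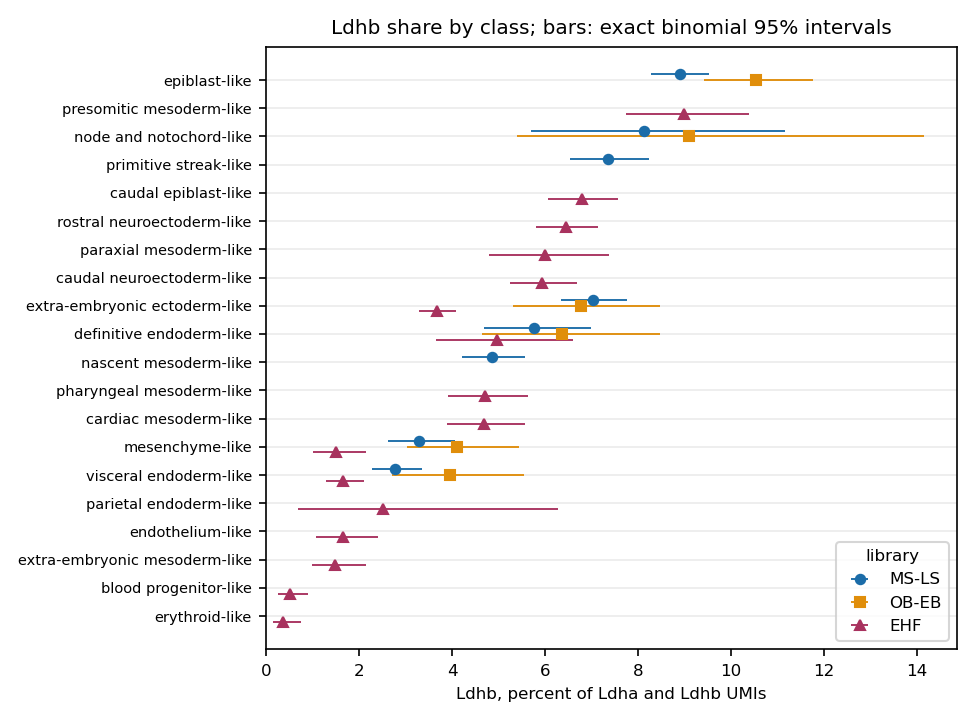
*Ldhb* as a percentage of *Ldha* and *Ldhb* UMIs (horizontal) in the named classes (vertical), coloured by library, with exact binomial 95% intervals. Epiblast-like classes reach 8.89% and 10.5%, and the erythroid-like and blood progenitor-like classes lie at 0.357% and 0.498%.

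*Hk2* and *Pfkp* had their own distributions. *Hk2* was highest in the primitive streak-like class of MS-LS (155 CPM), the epiblast-like class of OB-EB (168 CPM) and the caudal neuroectoderm-like class of EHF (77.9 CPM), and in OB-EB and EHF every pair of neighbouring classes had overlapping intervals. Its share of *Hk2* and *Hk1* UMIs was 55.4% in erythroid-like, 61.2% in blood progenitor-like and 69.3% in extra-embryonic ectoderm-like cells of EHF, against 99.1% in visceral endoderm-like and 98.1% in cardiac mesoderm-like cells. *Hk1* was past 2-fold higher in the erythroid-like class. *Pfkp* was past 2-fold higher in the extra-embryonic ectoderm-like classes of MS-LS (33.3 CPM, log2 2.60) and EHF (21.7 CPM, log2 1.78), and in the endothelium-like (23.7 CPM) and blood progenitor-like (22.9 CPM) classes of EHF, from 102, 77, 13 and 17 UMIs. Of all genes 5.93%, 5.68%, 3.38% and 3.56% were past 2-fold higher in these classes. In the OB-EB extra-embryonic ectoderm-like class it stood at 17.2 CPM, with under 100 UMIs in the library. Within this class of EHF, 1 cluster led by *Eomes* had 42.2 CPM (30.4 to 57.1) and the 2 larger clusters 14.0 and 13.2 CPM.

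The same class was compared between libraries, which takes out differences in the numbers of cells of the named types but not those between the libraries or within a class. For OB-EB over MS-LS 6 classes could be compared. Of the values of the 10 genes with at least 100 UMIs, 0 were past 2-fold, while some of all genes tested were. Values with fewer UMIs could not be called. They included *Hk2* in node and notochord-like cells (log2 1.22, from 12 UMIs in OB-EB and 7 in MS-LS). *Pfkp* stood at 1.44 there (2 and 1 UMIs) and at -1.31 in visceral endoderm-like cells (4 and 28 UMIs). The shares higher and lower were 6.06% and 4.81% in definitive endoderm-like, 6.74% and 2.66% in epiblast-like, 2.73% and 2.29% in extra-embryonic ectoderm-like, 5.38% and 3.43% in mesenchyme-like, 3.44% and 2.63% in node and notochord-like, and 2.04% and 3.03% in visceral endoderm-like cells. *Ldha* was lower in 6 of 6 classes (log2 -0.94 to -0.62), as were *Pkm* (-0.72 to -0.30) and *Aldoa* (-0.57 to -0.38), each with its interval below 0. *Slc2a1* had a log2 ratio below 0 in 6 of 6, with 3 intervals below 0. *Hk2* (0.18 to 1.22) and *Pgk1* (0.42 to 0.79) had ratios above 0 in 6 of 6, with 3 intervals above 0 each. The summed level was lower in all 6 (-0.50 to -0.34). Stress response genes moved between these libraries as well: 4 of 9 tested were past 2-fold lower in OB-EB, *Egr1*, *Hspa1a*, *Hspa1b* and *Zfp36*. Of all 9706 genes tested between the whole libraries 3.28% were lower. The part of the stress response genes in the values was not tested.

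For EHF over OB-EB 4 classes could be compared. *Slc2a1* stood at 80.8 CPM in OB-EB and 599 in EHF in definitive endoderm-like cells (log2 2.89, 2.45 to 3.35), and at 92.5 and 886 CPM in mesenchyme-like cells (3.26, 2.94 to 3.60). The ratio was 1.28 in visceral endoderm-like and 0.97 in extra-embryonic ectoderm-like cells. *Slc2a3* stood at 379 and 1674 CPM in definitive endoderm-like cells (2.14, 1.93 to 2.36) and at 137 and 455 CPM in mesenchyme-like cells (1.73), with 0.82 in visceral endoderm-like and -0.11 in extra-embryonic ectoderm-like cells (-0.32 to 0.10). In MS-LS the definitive endoderm-like class had 106 CPM of *Slc2a1* and 216 CPM of *Slc2a3*, so the EHF class had the highest level of both. These classes need not hold the same cells. The class was led by *Cer1*, *Lefty1* and *Gsc* in MS-LS, *Cer1*, *Sox17* and *Shisa2* in OB-EB, and *Trh*, *Cer1* and *Cpm* in EHF. Of 36 MS-LS cells that the study assigned to the anterior primitive streak, 24 fell in it. The EHF class held 0 UMIs of the visceral endoderm gene *Slc2a2*, and *Slc16a1* stood at 879 CPM there. Of all genes tested 9.01% in definitive endoderm-like, 10.5% in mesenchyme-like, 9.46% in visceral endoderm-like and 13.0% in extra-embryonic ectoderm-like cells were past 2-fold higher. Of the 10 genes 2, 4, 3 and 2 were. *Pgk1* in definitive endoderm-like cells (log2 1.42, 63 UMIs in EHF and 34 in OB-EB) had too few UMIs for a call.

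*Ldha* was higher in EHF than in OB-EB in 4 of 4 classes (log2 0.98 to 1.45) and *Pgk1* too (1.18 to 1.50), while *Hk2* was lower in 4 of 4 (-1.33 to -0.94), each with its interval excluding 0. *Hk2* was past 2-fold lower in definitive endoderm-like and extra-embryonic ectoderm-like cells, where 10.2% and 4.55% of all genes were, against 9.27% in mesenchyme-like and 5.30% in visceral endoderm-like cells, where it was not. The largest *Hk2* difference was in definitive endoderm-like cells, from 127 CPM (80 UMIs) to 50.5 CPM (22 UMIs). *Ldhb* had intervals that included 0 in all 4. Clusters that share a name in 2 libraries need not hold the same cells, since the mesenchyme-like class was led by *Hand1* and *Foxf1* in OB-EB and by *Pmp22* and *Stard8* in EHF.

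**Figure D5:**
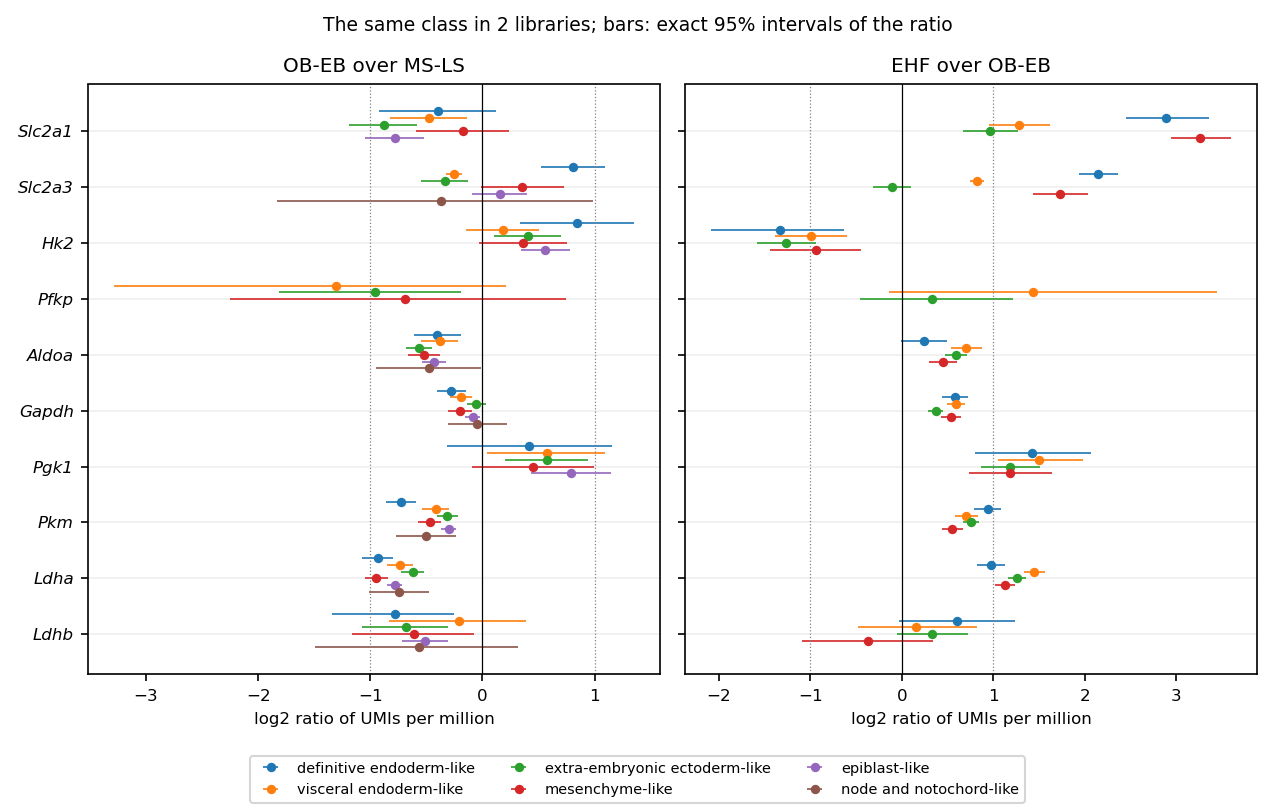
Log2 ratio of the CPM of a class in 1 library over the same class in another (left, OB-EB over MS-LS, 6 classes; right, EHF over OB-EB, 4 classes), with exact 95% intervals, for values with at least 20 UMIs and no group at 0; dotted lines mark 2-fold. *Ldha*, *Pkm* and *Aldoa* lie left of 0 on the left and right of 0 on the right, *Hk2* has the opposite signs, and *Slc2a1* and *Slc2a3* spread most on the right.

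Primitive streak cells could be compared by the barcodes that the study assigned to this population, 318 cells in MS-LS and 252 in OB-EB, of which 185 fell in the primitive streak-like class and 65 in 1 unnamed cluster, the most in any class. *Slc2a1* stood at 82.9 CPM in MS-LS (174 UMIs) and 36.6 CPM in OB-EB (27 UMIs), a log2 ratio of -1.18 (-1.82 to -0.59), and it was the only one of the 10 past 2-fold, where 3.47% of 3196 genes were higher and 5.19% lower. *Ldha* stood at 2223 and 1178 CPM (-0.92) and *Slc2a3* at 159 and 92.1 CPM (-0.78). *Hk2* stood at 151 and 141 CPM with an interval that included 0, and so did *Pgk1*, at 51.9 and 73.1 CPM. Median UMIs a cell were 5612 and 2809.5, and the part of depth was not tested.

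Other genes of the pathway were given from lists. Of 21 other glycolytic enzymes, 10 were tested for OB-EB over MS-LS and 0 were past 2-fold higher, while *Hk1* was among those lower, where 4.17% of all genes were higher and 3.28% lower, with a median log2 ratio of -0.39 against -0.09 over all genes. The summed level of the listed enzymes was nearly the same, at 2554 CPM in MS-LS and 2553 in OB-EB. *Eno1* went the other way from the median, with 997 CPM in MS-LS and 1493 in OB-EB. For EHF over OB-EB 11 were tested, those higher included *Hk1*, *Gpi1*, *Tpi1* and *Ldhc*, and 0 were lower, where 14.9% of all genes were higher and 5.57% lower, with a median of 0.98 against 0.37. *Gpi1*, which interconverts the hexose phosphates, stood at 85.3 CPM in OB-EB and 199 in EHF, and *Tpi1*, the triose phosphate isomerase, at 227 and 527 CPM. Of 17 other targets known to respond to hypoxia, 13 were tested for OB-EB over MS-LS, 0 were higher and 1 was lower (*Ndrg1*), and 14 for EHF over OB-EB with 3 higher (*P4ha2*, *Ndrg1* and *Ddit4*), 0 lower and a median of 0.03 against 0.37, beside the same shares of all genes. The summed level of these hypoxia targets was 4490 CPM in MS-LS, 4251 in OB-EB and 2944 in EHF. Of 7 genes of the pentose phosphate pathway 0 were past 2-fold in any of the 3 comparisons.

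The genes whose pattern over the 30 classes was most like that of a member, among 5238 genes, were *Lrrc16a*, *Sccpdh* and *Tmprss2* for *Slc2a3* (r = 0.85, 0.84 and 0.83) and *Wbp1l*, *Bcam* and *Rfc5* for *Slc2a1* (0.79, 0.76 and 0.75). They were *Ran*, *Clns1a* and *Ahcy* for *Ldha* (0.95, 0.94 and 0.93), *Slc16a3*, *Lmnb1* and *Rplp1* for *Aldoa* (0.89, 0.87 and 0.85) and *Lepr*, *Timm10b* and *Retn* for *Hk2* (0.78, 0.78 and 0.77). *Gapdh* was most like *Eno1b* (0.95), *Pkm* like *Fabp5* (0.94), *Ldhb* like *Hmgn3* (0.85) and *Pfkp* like *Cul4b* (0.73).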

How the data were processed

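Whole mouse embryos were dissociated with papain and profiled with the 10x Chromium 3′ assay, 1 library a stage. Per the labels and the study's methods, the authors made the deposited UMI counts with Cell Ranger 3.0.2 against GRCm38 with vector sequences added (R 3.6.1 and Seurat 3 are also listed), and kept cells with at least 500 genes, 1000 UMIs and a limited mitochondrial share. The raw counts were not normalized.

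The alternatives tried were other clustering resolutions, Leiden clustering, no naming margin, stricter cell filters, another total, the mean CPM of single cells, and leaving out classes. Counts were summed over cells and given as CPM. Exact intervals (Poisson for levels, Clopper-Pearson for shares and ratios, at 95%) cover counting error only. A group with 0 UMIs was set to a floor of 3 UMIs over the group. Cells were clustered in Seurat 5.3.0 under R 4.3.3 (2000 variable genes, 50 components, resolution 4.5 for EHF and 2 for the others), with the 10 genes, the 111 genes of 12 lists and the reporter held out. Clusters were named by markers of 23 cell types, needing at least 3 detected markers and a margin of 0.2 over the next type. Scrublet called 6, 0 and 13 cells as doublets, too few to rely on, so no cell was removed, and an alternative left out the 5% with the highest scores. Summaries were computed with scipy 1.17.1 and pandas 2.3.3 in Python 3.11.15, and Leiden clustering with scanpy 1.11.5. The summing and interval steps were tested on simulated data.

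All 10 genes are named. Of the lists, genes past 2-fold in a comparison given are named, and for pattern likeness the genes with the highest r among those with at least 300 UMIs and 50 CPM in 1 class. Leading genes of clusters and the levels of *Pfkl*, *Eno1*, *Slc16a1*, *Slc16a3* and *Slc2a2* were added after values were seen. The members and lists were chosen with earlier results of these data known. Results for a few genes that the rule would name are not reported here.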

Additional observations from a re-analysis of the deposited data

Results flagged for a closer look

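*Slc2a3* had log2 ratios of opposite sign in different classes under the same comparison of stages, each with its interval excluding 0. For OB-EB over MS-LS the ratio was 0.81 in definitive endoderm-like cells, -0.34 in extra-embryonic ectoderm-like cells and -0.25 in visceral endoderm-like cells. For EHF over MS-LS it was 2.95 in definitive endoderm-like, 2.08 in mesenchyme-like and 0.56 in visceral endoderm-like cells, and -0.44 in extra-embryonic ectoderm-like cells. With 1 library a stage the differences between classes were not tested, and both comparisons share the MS-LS library. The visceral endoderm-like class of MS-LS held a cluster of 271 cells with a marker score of 1.93 for visceral and 1.67 for definitive endoderm. How such cells were divided between these classes in each library was not tested.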

How the results depend on the processing

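Without the extra-embryonic and blood classes the summed log2 ratio was -0.45 for OB-EB over MS-LS, 0.94 for EHF over OB-EB and 0.49 for EHF over MS-LS. With the mean CPM of single cells it was -0.42, 0.83 and 0.42, and with a total that left out mitochondrial, ribosomal protein, globin and reporter genes it was 0.84 for EHF over OB-EB and 0.44 for EHF over MS-LS. The genes past 2-fold in OB-EB over MS-LS numbered 0 without the extra-embryonic and blood classes and with the mean of single cells. Those in EHF over MS-LS numbered 1 with the mean of single cells, with the other total and without the 5% of cells with the highest Scrublet scores, *Slc2a1* falling below 2-fold each time, and *Slc2a3* dropped below 2-fold in EHF over OB-EB without those cells and among cells with at least 2000 UMIs (log2 0.96). Without the extra-embryonic and blood classes *Slc2a3* made up 53.8%, 64.3% and 55.7% of the transporter UMIs and *Ldhb* 7.50%, 9.85% and 6.65% of those of lactate dehydrogenase, and the *Pfkp* ratio for EHF over OB-EB was -0.15. Against other cells without visceral endoderm, an alternative chosen after seeing the data, *Slc2a3* was at 0.44 in MS-LS definitive endoderm-like and 0.11 in OB-EB mesenchyme-like cells, since the cells compared with no longer held its highest class. For the other changes the cause was not tested. Of the 63 class values past 2-fold, 9 were lost in that comparison, 3 of 52 present at a lower resolution, 6 with Leiden clustering and 4 with the mean of single cells. No paired analysis was possible because each stage is 1 library and the replicate numbers are in accession order only. Depth limits *Pfkp* most, with 60 UMIs in the OB-EB library.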

Other observations

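An unnamed EHF cluster of 107 cells led by *Gap43*, *Wnt6* and *Tfap2a* had 1232 CPM of *Slc2a3* (1151 to 1317) and 443 CPM of *Slc2a1*. Unnamed clusters with a low mitochondrial share had a high summed level of the 10 genes with few transporter UMIs. The MS-LS cluster had 8382 CPM in all, with 50.2 CPM of *Slc2a1* and 43.5 of *Slc2a3*. The OB-EB cluster had 6411 CPM, with 29.8 and 62.6. The 3 EHF clusters had 12210, 10310 and 9853 CPM, with 119, 46.7 and 57.1 of *Slc2a1* and 125, 84.1 and 93.4 of *Slc2a3*.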
